A study of Mus musculus with 6 samples.

Results

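The genes of the transforming growth factor beta (TGF beta), bone morphogenetic protein (BMP) and activin families were chosen by symbol from the deposited expression table of mouse liver tumours. Earlier results of these data were known when the families were chosen. The symbols taken were Tgfb1 to Tgfb3, Tgfbr1 to Tgfbr3, all Bmp and Gdf genes followed by a number, the Bmpr and Acvr receptors, the inhibin chains Inha and Inhba, Inhbb, Inhbc and Inhbe, and the Smad genes. This gave 50 of 55291 genes in the table. They comprised 3 TGF beta ligands, 10 BMP ligands, 10 growth differentiation factor (GDF) ligands, 5 activin and inhibin chains, 7 type I receptors, 4 type II receptors, the type III receptor Tgfbr3, 5 receptor Smads, the common Smad gene Smad4 and 2 inhibitory Smads. The remaining 2, Bmp1 and Bmp2k, share the symbol only, since Bmp1 encodes a protease that trims procollagen and Bmp2k a kinase.

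Polyadenylated RNA of 6 liver tumours was sequenced, each as 1 bulk library. All were RIL-175/PD-1R tumours, RIL-175 being a mouse hepatocellular carcinoma line, and all came from mice given anti-PD-1, an antibody that blocks a T cell checkpoint. Hosts of the 3 Cre_PD1 tumours were LysM-Cre mice, in which the lysozyme promoter drives Cre recombinase in myeloid cells. Hosts of the 3 MKO_PD1 tumours were Trem2-MKO mice, named for the knockout of Trem2, which encodes a receptor for lipids on macrophages. The labels give no age, sex or strain, do not say what PD-1R or the M of MKO stands for, which Cre drove the knockout or which part of Trem2 was deleted, and include no untreated tumour.

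Ligands of this superfamily are secreted dimers that bring a type II and a type I receptor together on the cell surface. The type I receptor then phosphorylates receptor Smads, Smad2 and Smad3 for TGF beta and activin and Smad1, Smad5 and Smad9 for BMP, which enter the nucleus with Smad4. Smad6 and Smad7 are induced by the pathway and block it. In liver, TGF beta is known as a growth inhibitor of hepatocytes and an activator of stellate cells, BMP6 and BMP2 from endothelium drive the iron hormone hepcidin in hepatocytes, BMP9 (the product of Gdf2) comes from stellate cells, and activins C and E (Inhbc and Inhbe) are made by hepatocytes.

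The libraries held 26747481 to 34265123 reads recovered from the deposited values, and levels are in TPM, that is, reads per length of exon rescaled to a total of 1000000 in each library. Trem2 itself was at 10.5, 16.5 and 14.9 TPM in Cre_PD1 and 7.68, 18 and 6.81 TPM in MKO_PD1, overlapping groups (log2 difference -0.44, SE 0.40; exact permutation p = 0.4, two-sided, where 3 against 3 allows no p below 0.1). These are whole-gene levels in bulk tissue and check the deletion only weakly. The tumours differed in tissue content. Summed over 14 hepatocyte markers, the level ran from 11399 to 23625 TPM in Cre_PD1 and was 123597, 29206 and 85715 TPM in MKO_PD1 replicates 1, 2 and 3. Summed over 10 keratin and progenitor markers of tumour epithelium, it ran from 18523 to 25260 TPM in Cre_PD1 and from 2531 to 10157 TPM in MKO_PD1. In bulk RNA, fewer cells of a type and less RNA per cell cannot be told apart.

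The test covered the 38 of 50 members that reached 1 TPM in 3 or more libraries, and 12 stayed below that level. None of the 38 passed the correction over all 16506 genes tested (limma moderated test on log2(TPM + 1), Benjamini-Hochberg adjusted p from 0.168 to 0.965), where 0.0121% of all genes passed, 0.00606% in each direction. At an unadjusted limma p under 0.05 there were 5 members higher and 7 lower in MKO_PD1, against 8.47% and 19.5% of all genes. The groups did not overlap for 6 members higher and 8 lower in MKO_PD1, against 10.1% and 28.9% of all genes. All 14 remained separate in the same direction after scaling by median-of-ratios factors, which brought the median log2 difference of all genes from -0.42 to -0.018. On that scale 12 members stood separate on the higher side and 8 on the lower side, against 18.6% and 21.2% of all genes. The median log2 difference of the 38 tested members was -0.33. In either direction 36.8% of the tested members had separate groups, near the 39.0% of all genes.

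**Figure D1:**
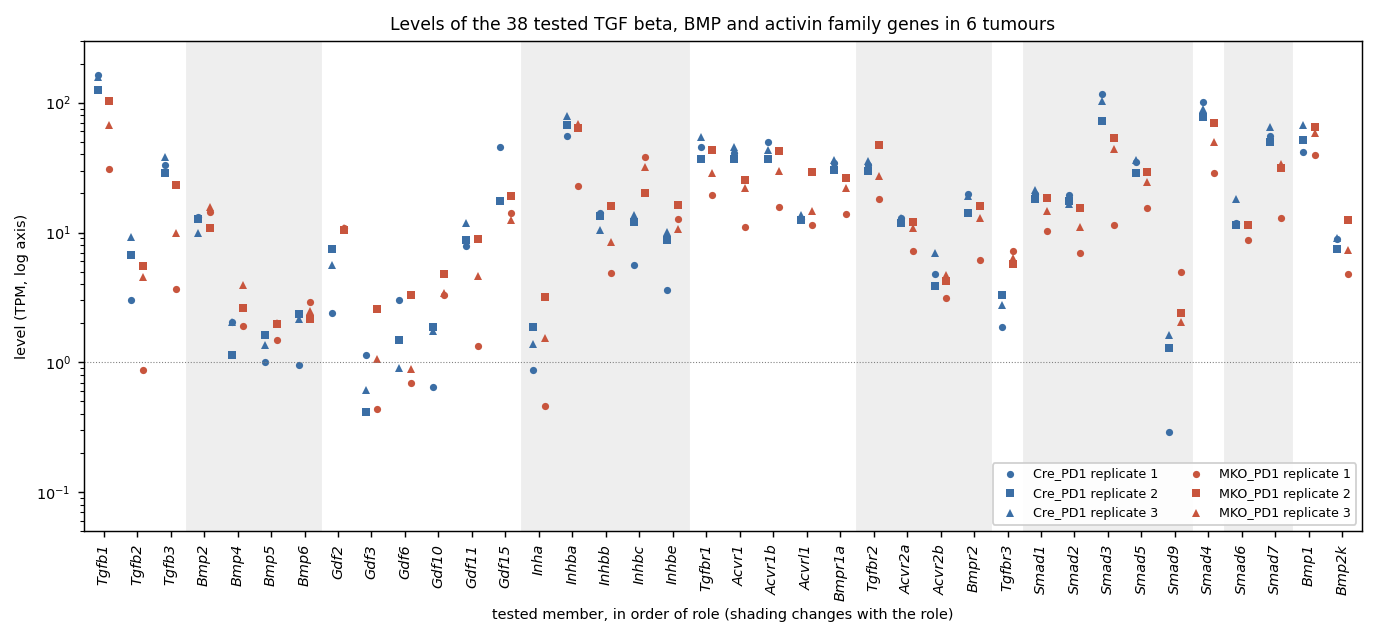
Level of each tested member in each library (TPM on a log axis), grouped by role, with Cre_PD1 in blue and MKO_PD1 in red and 1 symbol per replicate. MKO_PD1 replicate 1 is the lowest point for 26 of the 38 members, among them Tgfb1 at 30.7 TPM and Smad3 at 11.4 TPM, and 1 point at 0.293 TPM (Smad9, Cre_PD1 replicate 1) lies far below the other libraries of that gene.

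Of all 16506 genes tested, 72.9% had negative log2 differences, beside 24 of the 38 members. Members with separate groups and a lower level in MKO_PD1 were the ligands Tgfb1 and Tgfb3, the receptors Acvr1 and Bmpr1a, and Smad2, Smad3, Smad4 and Smad7. Those with separate groups and a higher level were the ligand genes Gdf2, Gdf10, Inhbc and Inhbe, the co-receptor Tgfbr3 and Smad9. None of the 4 tested BMP ligand genes and none of the 4 type II receptors had separate groups on the TPM scale.

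**Figure D2:**
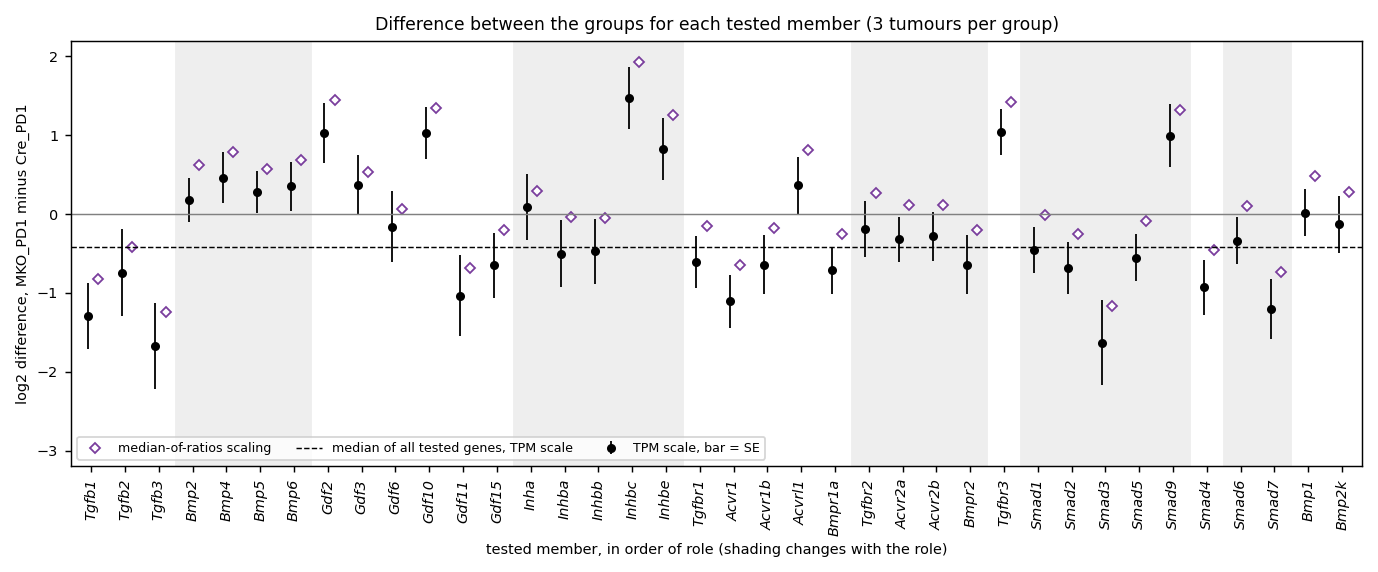
Log2 difference between the groups (MKO_PD1 minus Cre_PD1) for each tested member on the TPM scale, with its standard error, and after median-of-ratios scaling; the dashed line is the median of all tested genes. Differences run from -1.67 for Tgfb3 to 1.48 for Inhbc, and every member lies higher after median-of-ratios scaling.

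Promoter windows were available from RefSeq (build GRCm38.p6, 250 bases before to 50 after a start site) for 36 of the 50 members, and 5 are shown: Inhbc and Gdf2 as ligands whose level was higher in MKO_PD1, Tgfb1 and Smad3 as members whose level was lower, and Smad6, the neighbour of Smad3 whose groups overlapped. Capitals mark matches, on either strand and allowing overlap, to any of 8 motifs: the Smad palindrome GTCTAGAC, the BMP GC element GGCGCC, the cyclic AMP response element TGACGTCA, the AP-1 element TGANTCA, the HNF4 element CAAAGTCCA, the HNF1 element, the Sp1 box GGGCGG and the TATA box TATAAA.
Inhbc, chr10:127370499-127370798, minus strand: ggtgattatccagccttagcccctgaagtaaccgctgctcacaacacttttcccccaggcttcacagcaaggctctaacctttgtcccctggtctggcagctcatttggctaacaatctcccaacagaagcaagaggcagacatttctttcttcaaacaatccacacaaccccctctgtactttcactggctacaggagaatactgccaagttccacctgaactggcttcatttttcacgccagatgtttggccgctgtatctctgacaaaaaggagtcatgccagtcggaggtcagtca
Gdf2, chr14:33940789-33941088, plus strand: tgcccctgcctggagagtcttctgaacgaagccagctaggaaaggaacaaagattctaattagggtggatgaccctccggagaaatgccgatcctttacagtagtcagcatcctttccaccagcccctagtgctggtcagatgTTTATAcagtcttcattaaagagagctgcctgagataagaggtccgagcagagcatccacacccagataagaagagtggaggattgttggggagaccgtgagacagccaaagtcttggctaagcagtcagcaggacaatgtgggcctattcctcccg
Tgfb1, chr7:25686752-25687051, plus strand: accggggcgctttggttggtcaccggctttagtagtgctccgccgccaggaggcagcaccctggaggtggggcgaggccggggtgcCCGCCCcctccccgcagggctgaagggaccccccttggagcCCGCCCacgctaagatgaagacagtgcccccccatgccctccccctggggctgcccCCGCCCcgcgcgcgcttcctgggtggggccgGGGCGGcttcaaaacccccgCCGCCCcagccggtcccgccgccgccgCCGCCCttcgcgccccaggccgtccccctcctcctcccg
Smad3, chr9:63757945-63758244, minus strand: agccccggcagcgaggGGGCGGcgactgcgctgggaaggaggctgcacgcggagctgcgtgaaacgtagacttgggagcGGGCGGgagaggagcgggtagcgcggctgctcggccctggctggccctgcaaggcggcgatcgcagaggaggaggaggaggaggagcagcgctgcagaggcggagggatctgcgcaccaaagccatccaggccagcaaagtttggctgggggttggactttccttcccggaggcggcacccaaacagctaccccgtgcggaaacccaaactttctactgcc
Smad6, chr9:64022010-64022309, minus strand: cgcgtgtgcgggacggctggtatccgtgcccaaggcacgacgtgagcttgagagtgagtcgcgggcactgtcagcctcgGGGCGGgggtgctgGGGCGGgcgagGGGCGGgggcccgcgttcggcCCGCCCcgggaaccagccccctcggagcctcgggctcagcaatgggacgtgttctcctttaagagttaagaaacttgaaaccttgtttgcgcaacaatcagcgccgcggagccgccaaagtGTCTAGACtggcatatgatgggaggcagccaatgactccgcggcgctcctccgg

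The Inhbc window held none of these motifs and 4 CpG sites. The Gdf2 window held 6 CpG sites and 1 match to the TATA box letters. That match lay on the other strand (TTTATA), at bases 144 to 149, an offset of -107 from the start site. The Tgfb1 window held 6 Sp1 boxes and 30 CpG sites and the Smad3 window 2 Sp1 boxes and 25 CpG sites. The Smad6 window held 4 Sp1 boxes, 31 CpG sites and, at bases 247 to 254, the full Smad palindrome, which 0.213% of all 32851 windows contain and no other window of a member did. An Sp1 box is present in 35.7% of all windows and a TATA box in 13.6%. The BMP GC element, in 11.9% of all windows, was found in those of 8 of the 36 members, namely Acvr1b, Bmp2k, Bmpr1a, Bmpr2, Gdf10, Smad5, Smad9 and Tgfbr1. The windows of the 4 members that were separate and lower and have one (Acvr1, Bmpr1a, Smad3 and Tgfb1) held 25 to 51 CpG sites. Those of the 5 that were separate and higher held 4 (Inhbc), 6 (Gdf2), 6 (Inhbe), 31 (Smad9) and 42 (Gdf10), beside a median of 27 for the 19 tested members whose groups overlapped (1 to 54) and 7 over all windows. These matches describe the letters in the windows and are no measure of binding.

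Of the TGF beta ligand genes, Tgfb1 was by far the most abundant and, with Tgfb3, stood lower in every MKO_PD1 tumour than in any Cre_PD1 tumour. Tgfb1 (ENSMUSG00000002603.15, chromosome 7, 25687002 to 25705077, plus strand, build GRCm38 or mm10), the main isoform of immune and stromal cells, was at 165, 124 and 158 TPM in Cre_PD1 and 30.7, 103 and 67.3 TPM in MKO_PD1. The highest MKO_PD1 library, replicate 2, lay close under the lowest Cre_PD1 library. The log2 difference was -1.29 (SE 0.42, limma adjusted p = 0.168), 2.45-fold lower in MKO_PD1 on that scale. Tgfb3 (chromosome 12, 86056745 to 86079041), an isoform of mesenchymal cells, was at 32.9, 28.7 and 38.4 TPM in Cre_PD1 and 3.67, 23.1 and 9.95 TPM in MKO_PD1. Its log2 difference of -1.67 (SE 0.54, limma adjusted p = 0.168) was the lowest of the 38 members, and it was -1.07 without MKO_PD1 replicate 1. In MKO_PD1 the libraries spread widely, with replicate 1 at 163 reads and replicate 2 at 781. Tgfb2 was at 3.01, 6.72 and 9.16 TPM against 0.869, 5.51 and 4.52 TPM, overlapping groups (log2 difference -0.74, SE 0.55, limma adjusted p = 0.351). The make-up of the ligand pool, which does not depend on scaling, overlapped between the groups. Tgfb1 made up 78.9 ± 2.79% of the summed TPM of the 3 ligands in Cre_PD1 and 82.5 ± 4.44% in MKO_PD1 (SD, n = 3 each), and Tgfb3 17.7 ± 1.16% and 13.4 ± 3.72%.

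The BMP ligand genes were low in all tumours, and the 4 tested members all had positive log2 differences, none past the test. Bmp2, an endothelial ligand in liver, was the highest at 13.2, 12.7 and 9.98 TPM in Cre_PD1 and 14.5, 10.9 and 15.6 TPM in MKO_PD1 (a log2 difference of 0.17, SE 0.28, limma adjusted p = 0.654). Bmp4 was at 2.06, 1.15 and 2.03 TPM against 1.90, 2.63 and 3.95 TPM. Bmp5 was at 1.0, 1.63 and 1.36 TPM against 1.48, 1.99 and 2.02 TPM, and 46.7% of its exon bases are shared with the antisense gene Gm26903, so its reads are uncertain. Bmp6, the main inducer of hepcidin, was at 0.958, 2.35 and 2.16 TPM against 2.91, 2.16 and 2.50 TPM, with only Cre_PD1 replicate 1 standing apart. Log2 differences of these 4 ran from 0.17 to 0.46 with limma adjusted p from 0.323 to 0.654. After median-of-ratios scaling they ran from 0.57 to 0.79, and Bmp4 and Bmp5 had separate groups there.

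Among the GDF ligands, Gdf2 and Gdf10 were at a higher level in every MKO_PD1 tumour than in any Cre_PD1 tumour. Gdf2 encodes BMP9, a circulating ligand of endothelial ALK1, and was at 2.40, 7.41 and 5.65 TPM in Cre_PD1 and 10.9, 10.4 and 10.9 TPM in MKO_PD1. The 3 MKO_PD1 tumours were nearly level (10.7 ± 0.294 TPM) while the Cre_PD1 tumours spread (5.16 ± 2.54 TPM, SD, n = 3 each). The log2 difference was 1.03 (SE 0.38, limma adjusted p = 0.168). Gdf10, encoding BMP3b, was at 0.642, 1.89 and 1.75 TPM against 3.31, 4.80 and 3.45 TPM (log2 difference 1.03, SE 0.33, limma adjusted p = 0.168), with 34 to 118 reads per library in Cre_PD1 and 190 to 250 in MKO_PD1. Gdf11, a ligand close to myostatin, was at 7.94, 8.84 and 11.8 TPM against 1.33, 8.87 and 4.66 TPM, where MKO_PD1 replicate 2 lay inside the Cre_PD1 range (log2 difference -1.04, SE 0.51, limma adjusted p = 0.205). Gdf15, a divergent stress-induced member that signals through the brain receptor GFRAL, was the most abundant GDF gene at 45.9, 17.4 and 17.5 TPM against 14.2, 19.1 and 12.5 TPM. Its Cre_PD1 mean of 26.9 ± 16.4 TPM rested on replicate 1, and without that library the log2 difference was -0.20 in place of -0.65 (limma adjusted p = 0.284 with all libraries). Gdf3 stayed between 0.412 and 2.56 TPM and Gdf6 between 0.691 and 3.29 TPM with overlapping groups.

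The activin chains divided between the chains made in many tissues and those of hepatocytes. Inhba, the chain of activin A, dominated at 55.0, 67.6 and 79.5 TPM in Cre_PD1 and 23.0, 64.4 and 68.7 TPM in MKO_PD1, overlapping groups (log2 difference -0.50, SE 0.43, limma adjusted p = 0.407). Inhbb, of activin B, was at 14.1, 13.5 and 10.5 TPM against 4.84, 15.9 and 8.51 TPM (log2 difference -0.47, SE 0.41, limma adjusted p = 0.414). Inhbc (ENSMUSG00000025405.9, chromosome 10, 127356322 to 127370431, minus strand), of activin C, was at 5.61, 12 and 13.7 TPM in Cre_PD1 and 38.1, 20.2 and 31.8 TPM in MKO_PD1, and every MKO_PD1 tumour was above every Cre_PD1 tumour. Its log2 difference of 1.48 (SE 0.39, limma adjusted p = 0.168; 2.78-fold) was the highest of the 38 members. Its neighbour Inhbe, of activin E, was at 3.61, 8.74 and 10.1 TPM against 12.8, 16.3 and 10.7 TPM, separate by a narrow margin between Cre_PD1 replicate 3 and MKO_PD1 replicate 3 (log2 difference 0.83, SE 0.39, limma adjusted p = 0.195). Inha, the alpha chain that turns activins into inhibins, stayed between 0.465 and 3.19 TPM, at 9 to 47 reads per library. Within the summed beta chains, Inhbc took 10.3 ± 2.74% in Cre_PD1 and 30.8 ± 16% in MKO_PD1, Inhbe 7.35 ± 2.38% and 13.1 ± 3.76%, and Inhba 68.8 ± 2.11% and 47.2 ± 15.7% (SD, n = 3 each). The groups did not overlap for any of these 3 shares. The share of Inhbb overlapped, at 13.5 ± 4.36% and 8.97 ± 4.08%, and the summed level of the 5 chains overlapped too, at 99.3 ± 18.5 and 107 ± 23.9 TPM. The 6 libraries stood in the same order by Inhbc as by the summed level of the 14 hepatocyte markers. This was 1 of 380 pairs of a member and a marker list that were compared. By the tumour epithelium markers the libraries stood in exactly the opposite order. Inhbe did not stand in the order of the hepatocyte markers. It was highest in MKO_PD1 replicate 2, where the hepatocyte sum was the lowest of its group. All 14 hepatocyte markers had positive log2 differences, 12 of them with separate groups. Their part in the Inhbc and Inhbe values was not tested.

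**Figure D3:**
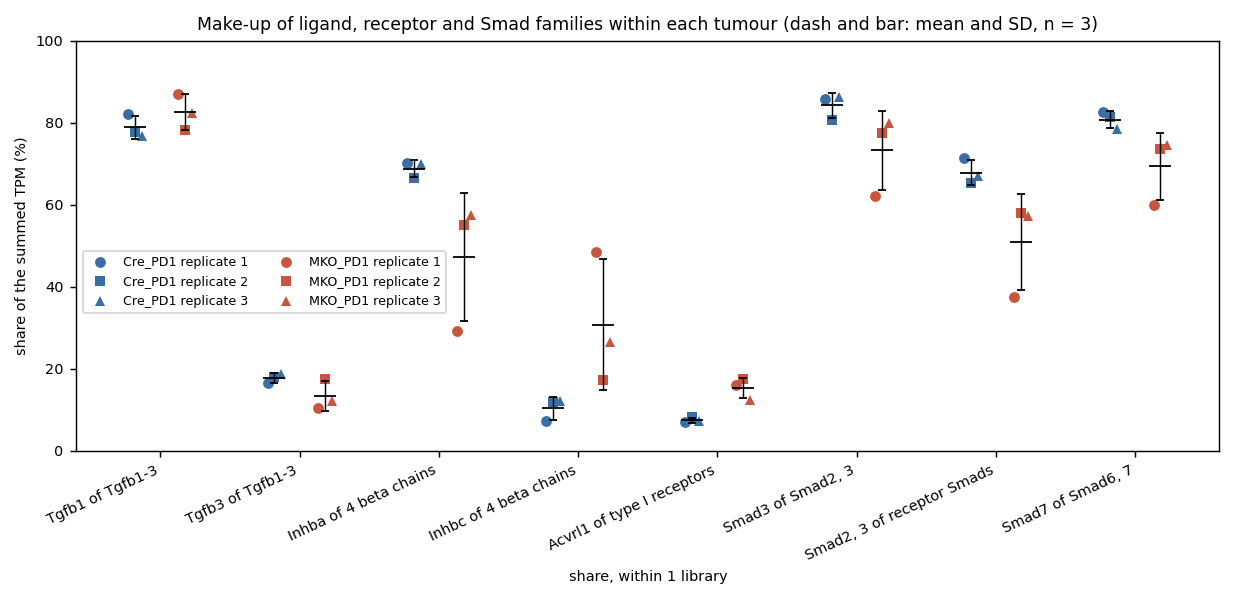
Share of named members in the summed TPM of their family (percent), by library, with mean and SD of 3 libraries per group. Inhbc makes up 7.17 to 12.1% of the beta chains in Cre_PD1 and 17.3 to 48.4% in MKO_PD1, and the Smad3, Smad2 plus Smad3 and Smad7 shares are lower in each MKO_PD1 library than in any Cre_PD1 library.

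Type I receptors carry the kinase that phosphorylates Smads, and 4 of the 5 tested had negative log2 differences, near the 72.9% of all genes. Acvr1, the BMP and activin receptor ALK2, was at 40.9, 37.1 and 45.5 TPM in Cre_PD1 and 11.1, 25.6 and 22.2 TPM in MKO_PD1, without overlap (log2 difference -1.11, SE 0.34, limma adjusted p = 0.168). Bmpr1a, the BMP receptor ALK3 of hepatocytes and many other cells, was at 34.1, 30.1 and 36.4 TPM against 13.8, 26.2 and 22 TPM, also without overlap (log2 difference -0.71, SE 0.30, limma adjusted p = 0.173). Tgfbr1, the TGF beta receptor ALK5, had the highest mean level of the type I receptors, above Acvr1b in 3 of the 6 libraries, at 45.5, 36.6 and 54.0 TPM against 19.6, 43.3 and 28.8 TPM, overlapping (log2 difference -0.61, SE 0.33, limma adjusted p = 0.234). Acvr1b, the activin receptor ALK4, was at 49.9, 37.1 and 42.9 TPM against 15.7, 42.6 and 29.9 TPM, overlapping as well. Acvrl1, the endothelial BMP9 receptor ALK1, was the exception at 12.7, 12.5 and 13.7 TPM against 11.4, 29.0 and 14.7 TPM (log2 difference 0.37, SE 0.36, limma adjusted p = 0.473). As a share of the summed type I receptors it was 7.40 ± 0.665% in Cre_PD1 and 15.3 ± 2.54% in MKO_PD1 (SD, n = 3 each), separate groups. The sum itself was 176 ± 20.4 TPM in Cre_PD1 and 119 ± 47.6 TPM in MKO_PD1, overlapping. In MKO_PD1 replicate 1 the level of Acvrl1 was below every Cre_PD1 library, although its share was higher. The 11 endothelial markers summed to 125 to 152 TPM in Cre_PD1 and 198 to 246 TPM in MKO_PD1, and their part in that share was not tested.

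Type II receptors, which bind ligand and switch on the type I partner, overlapped between the groups in all 4 cases. Tgfbr2 was at 32.9, 29.5 and 35.7 TPM in Cre_PD1 and 18.1, 47.0 and 27.0 TPM in MKO_PD1, with MKO_PD1 replicate 2 the highest and replicate 1 the lowest of the 6 (log2 difference -0.19, SE 0.36, limma adjusted p = 0.709; 0.27 after median-of-ratios scaling). Bmpr2 was at 19.8, 14.2 and 19.0 TPM against 6.10, 15.9 and 12.9 TPM (log2 difference -0.64, SE 0.38, limma adjusted p = 0.255). The activin receptors Acvr2a (7.17 to 13.0 TPM) and Acvr2b (3.14 to 6.91 TPM) had log2 differences of -0.32 and -0.28, which turned to 0.12 and 0.11 after median-of-ratios scaling.

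Tgfbr3, encoding betaglycan, which presents TGF beta 2 and inhibin to the signalling receptors, was at 1.86, 3.30 and 2.75 TPM in Cre_PD1 and 7.19, 5.70 and 6.31 TPM in MKO_PD1. The replicates were tight in both groups (2.64 ± 0.723 and 6.40 ± 0.747 TPM, SD, n = 3 each) and did not overlap. The log2 difference was 1.04 (SE 0.29, limma adjusted p = 0.168; 2.06-fold), opposite in sign to those of Tgfbr1 and Tgfbr2.

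Of the receptor Smads, both of the TGF beta and activin branch stood at a lower level in every MKO_PD1 tumour, and Smad9, the rarest of the BMP branch, at a higher one. Smad3 (ENSMUSG00000032402.12, chromosome 9, 63646767 to 63757994, minus strand) was at 117, 72.9 and 103 TPM in Cre_PD1 and 11.4, 53.4 and 44.2 TPM in MKO_PD1, without overlap (log2 difference -1.63, SE 0.54, limma adjusted p = 0.168; 3.10-fold lower). Without MKO_PD1 replicate 1 the log2 difference was -0.97, so that library carried much of its size. Smad2 was at 19.5, 17.3 and 16.5 TPM against 6.94, 15.5 and 11 TPM (log2 difference -0.69, SE 0.33, limma adjusted p = 0.197). Smad3 made up 84.2 ± 3.01% of Smad2 plus Smad3 in Cre_PD1 and 73.2 ± 9.61% in MKO_PD1, separate groups. Smad1 (10.4 to 21.2 TPM) and Smad5 (15.4 to 36.4 TPM) overlapped, with log2 differences of -0.46 and -0.55, near the median of all genes. Smad9, also known as Smad8, was at 0.293, 1.29 and 1.64 TPM against 4.97, 2.40 and 2.04 TPM, without overlap (log2 difference 1.0, SE 0.40, limma adjusted p = 0.169), on 16 to 83 reads per library in Cre_PD1 and 116 to 350 in MKO_PD1. Smad2 and Smad3 together made up 67.8 ± 3.11% of the 5 receptor Smads in Cre_PD1 and 50.9 ± 11.7% in MKO_PD1 (SD, n = 3 each). Every Cre_PD1 tumour was above every MKO_PD1 tumour for this share.

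Smad4, the partner of all receptor Smads, was at 102, 77.0 and 89.6 TPM in Cre_PD1 and 28.6, 69.2 and 49.7 TPM in MKO_PD1 (a log2 difference of -0.93, SE 0.34, limma adjusted p = 0.168). The groups did not overlap, with MKO_PD1 replicate 2 nearest to Cre_PD1. Of the inhibitory Smads, Smad7, which blocks both branches, was at 55.8, 49.7 and 65.5 TPM against 12.9, 31.5 and 33.9 TPM, without overlap (log2 difference -1.20, SE 0.38, limma adjusted p = 0.168; 2.30-fold lower). Smad6, which acts mainly on the BMP branch, was at 11.8, 11.4 and 18 TPM against 8.68, 11.4 and 11.5 TPM, overlapping (log2 difference -0.34, SE 0.30, limma adjusted p = 0.420; 0.11 after median-of-ratios scaling). Smad7 made up 80.8 ± 2.10% of the inhibitory Smads in Cre_PD1 and 69.3 ± 8.24% in MKO_PD1, separate groups. Bmp1 (39.6 to 66.8 TPM) and Bmp2k (4.76 to 12.5 TPM), which carry the symbol but no ligand role, had log2 differences of 0.019 and -0.13.

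Several members lie side by side in the genome. Inhbe and Inhbc are 1910 bases apart on chromosome 10 and Gdf10 and Gdf2 3055 bases apart on chromosome 14, each pair with no protein-coding gene between. All 4 were separate and higher in MKO_PD1, beside 10.1% of all genes. Gdf2 took 78.3 ± 1.77% of the summed TPM of its pair in Cre_PD1 and 73.7 ± 4.61% in MKO_PD1, overlapping. The promoter windows of the pair held 6 CpG sites for Gdf2 and 42 for Gdf10. Smad3 and Smad6 are 195.1 kb apart on chromosome 9 with no protein-coding gene between, and their log2 differences were -1.63 and -0.34. Acvr1c, below the filter, and Acvr1, separate and lower in MKO_PD1, are 30.7 kb apart on chromosome 2 with no protein-coding gene between. Acvrl1 and Acvr1b are 28.7 kb apart on chromosome 15, with log2 differences of 0.37 and -0.64. These differences between neighbours were not tested.

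The 12 members below the filter were Acvr1c, Bmp3, Bmp7, Bmp8a, Bmp8b, Bmp10, Bmp15, Bmpr1b, Gdf1, Gdf5, Gdf7 and Gdf9. Gdf9 reached the highest level among them, 1.03 TPM. Bmp7, a BMP ligand of kidney, was at 0.0734, 0.394 and 0.284 TPM in Cre_PD1 and 0.531, 0.847 and 0.471 TPM in MKO_PD1, on 3 to 34 reads per library. Bmp10, a partner of BMP9 in blood, stayed between 0.156 and 0.849 TPM. Gdf5, a joint ligand, and Gdf1, a ligand of left-right patterning, had 0 reads in all 6 libraries. All exon bases of Gdf1 are shared with Cers1 on the same strand, so a count of 0 cannot be read as absence. Bmp8a and Bmp8b are close copies, and reads may be split between them or lost.

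The MKO_PD1 tumours differed among themselves in where the members stood. MKO_PD1 replicate 1 was the lowest of the 6 libraries for 26 of the 38 tested members and lay below the Cre_PD1 range for 27. Replicate 3 lay below it for 20 and replicate 2 for 9. Over all tested genes the shares below the Cre_PD1 range were 73.7%, 62.2% and 31.3% for replicates 1, 3 and 2. Replicate 2 lay above the Cre_PD1 range for 15 members, Tgfbr2 and Acvrl1 among them, and for 31.9% of all genes. It also had the highest summed level of the 11 fibroblast and stellate markers (2208 TPM, against 740 to 1173 TPM in Cre_PD1) and the lowest hepatocyte level of its group. Of the 11 fibroblast and stellate markers 9 overlapped and 7 had negative log2 differences, with a median of -0.06, while the stellate genes Lrat and Reln were separate and higher in MKO_PD1, at 3.30 to 5.23 against 5.78 to 7.09 TPM and 0.709 to 2.11 against 2.62 to 3.64 TPM. Of all markers in the 10 cell lists, the platelet gene Gp1bb alone was at 0 in every library. The part of tissue content in the members' values was not tested, and genotype and tissue content cannot be told apart in these 6 tumours.

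**Figure D4:**
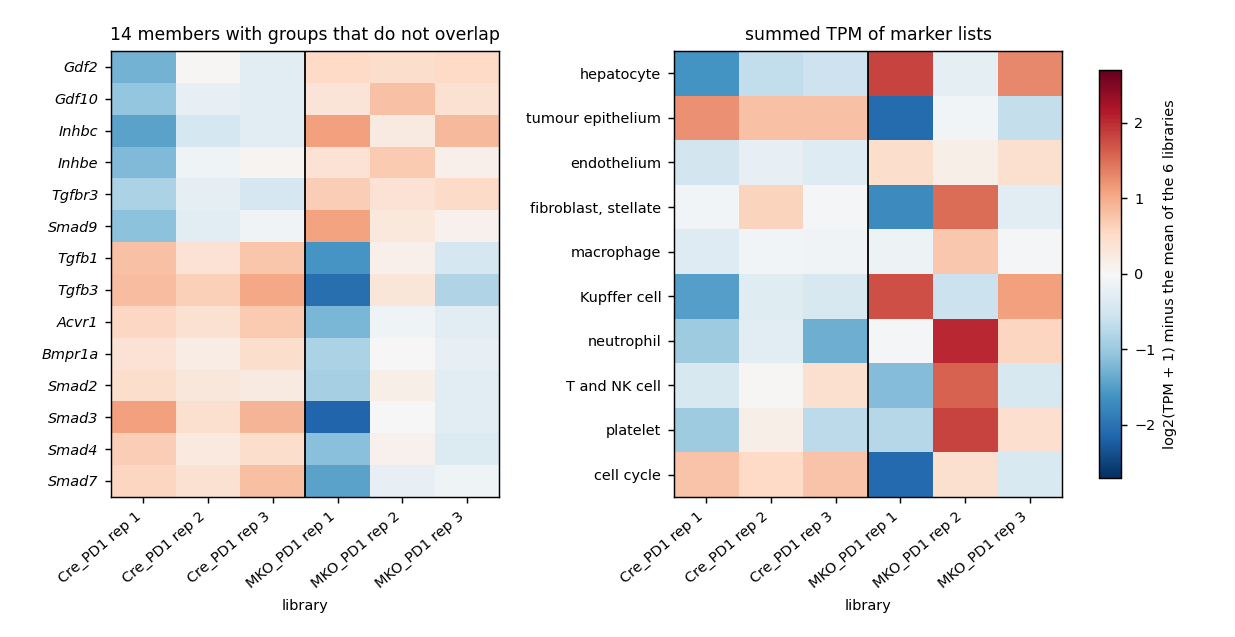
Level by library of the 14 members whose groups do not overlap (left) and summed level of the marker lists (right), as log2(TPM + 1) minus the mean of the 6 libraries. MKO_PD1 replicates 1 and 3 are high for hepatocyte and Kupffer cell markers and low for Tgfb1 and Tgfb3, and MKO_PD1 replicate 2 is highest for fibroblast, neutrophil, T and NK cell and platelet markers.

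Leaving out MKO_PD1 replicate 2 changed the calls. Without it 13 of 36 members passed the threshold (limma adjusted p under 0.05), where 45.9% of all genes did and the median of all genes was -0.66. The 11 lower ones were Tgfb1 (-1.68), Tgfb3 (-2.25), Gdf11 (-1.52), Tgfbr1 (-0.89), Acvr1 (-1.33), Acvr1b (-0.96), Bmpr1a (-0.90), Smad2 (-0.94), Smad3 (-2.03), Smad4 (-1.22) and Smad7 (-1.39), as log2 differences. The 2 higher ones were Inhbc (1.73) and Tgfbr3 (1.11), where 7.88% of all genes were called higher and 38.0% lower. The share of members called, 36.1%, was below that of all genes. Without any other single library no member passed.

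Genes around the pathway were read from 7 lists, 70 of 84 genes tested, and none passed the correction over all genes (limma adjusted p of 0.168 or more). Their groups were separate and higher for 6 and separate and lower for 22, against the 10.1% and 28.9% of all genes given above, with a median log2 difference of -0.55. Latency genes, which store and release TGF beta, gave 4 of 13 separate and lower and 0 separate and higher. The latent TGF beta binding proteins Ltbp1, Ltbp3 and Ltbp4 were at 63.3 to 92.4, 162 to 251 and 64.5 to 86.8 TPM in Cre_PD1 and 6.92 to 41.0, 15.4 to 117 and 17.1 to 48.3 TPM in MKO_PD1. Without MKO_PD1 replicate 1 the log2 differences of Ltbp1 and Ltbp3 were -1.10 and -1.08, in place of -1.86 and -1.93. The platelet and T cell docking protein gene Lrrc32 (8.33 to 18.2 TPM) and its myeloid counterpart Nrros (15.6 to 47.2 TPM) overlapped, so the 13 did not all stand on one side. Of 10 tested ligand antagonists, Grem1 was separate and lower (62.3 to 83.1 against 6.12 to 36.1 TPM, log2 difference -1.76, and -0.97 without MKO_PD1 replicate 1). The activin antagonist Fstl3 was at 7.42 to 14.2 against 1.22 to 8.51 TPM, overlapping.

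Among the ligands whose symbols were not matched, Lefty1, an inhibitor of Nodal, was at 43.1, 41.2 and 35.0 TPM in Cre_PD1 and 5.94, 19.4 and 14.4 TPM in MKO_PD1 (a log2 difference of -1.65, SE 0.41, limma adjusted p = 0.168). Amh was between 0.453 and 1.99 TPM. Of 6 tested co-receptors, Hjv, which binds BMP6 in hepatocytes, was at 13.3, 29.2 and 30.7 TPM against 135, 35.0 and 89.7 TPM. The endothelial co-receptor Eng was at 26.8 to 46.5 against 54.3 to 68.0 TPM, and both were separate and higher in MKO_PD1. Rgmb, a BMP co-receptor of the same family as Hjv, was separate and lower (15.8 to 20.3 against 3.72 to 14.6 TPM). All 13 Smad modifiers had negative log2 differences and 9 were separate and lower, with the median at -0.64, where 72.9% of all genes were negative and 28.9% separate and lower. After median-of-ratios scaling the log2 differences of Map3k7 (0.28), Zfyve9 (0.20), Usp15 (0.15) and Ppm1a (0.0044) were positive, and the others stayed negative. The receptor-binding immunophilin Fkbp1a was at 352 to 485 against 78.8 to 289 TPM, the repressor Tgif1 at 58.1 to 73.3 against 14.6 to 41.8 TPM and the Smad4 regulator Trim33 at 33.6 to 46.1 against 7.18 to 27.7 TPM.

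The known target genes of each branch were read from a list of its own. Of 21 tested TGF beta-induced genes, 20 had negative log2 differences, beside 72.9% of all genes, with a median of -0.67. Without MKO_PD1 replicate 1 the log2 differences of Ccn2, Ltbp2, Col1a1, Col1a2, Col3a1, Fn1, Snai1, Snai2, Acta2 and Timp1 turned positive. The others kept their sign. After median-of-ratios scaling only those of Fn1, Snai1 and Snai2 turned positive. Among the 21, 5 were separate and lower and 0 separate and higher. The 5 of 21 are 23.8%, below the 28.9% of all genes that were separate and lower. Cdkn2b, a cell cycle inhibitor, was at 103, 103 and 134 TPM in Cre_PD1 and 10.7, 51.5 and 30.7 TPM in MKO_PD1 (a log2 difference of -2.08, SE 0.51, limma adjusted p = 0.168, and -1.47 without MKO_PD1 replicate 1). The AP-1 gene Junb was at 727 to 1044 against 220 to 515 TPM. Collagen genes Col1a1, Col1a2 and Col3a1, which are also fibroblast markers here, overlapped, with MKO_PD1 replicate 2 the top library for each (923, 307 and 656 TPM). Of 10 tested BMP-induced genes, the groups of 3 were separate with MKO_PD1 higher and those of 2 with MKO_PD1 lower. Over all genes these shares were 10.1% and 28.9%. The median log2 difference of the 10 was 0.30. Atoh8 was at 3.81, 6.88 and 7.19 TPM against 16.2, 9.70 and 13.9 TPM (log2 difference 1.05, SE 0.34, limma adjusted p = 0.168) and Id1, a broad BMP target, at 119, 133 and 126 TPM against 47.6, 87.0 and 54.8 TPM (-1.04, SE 0.28). Of the other inhibitor of differentiation genes in the list, Id3 was at 20.3 to 54.7 against 68.3 to 112 TPM, while Id2 (159.6 to 241 TPM) and Id4 (1.35 to 1.97 TPM) overlapped. Smad7 is in both target lists and Smad6 and Smad9 in the BMP list, so these lists are not independent of the members. The median log2 difference was 1.95 for the hepatocyte markers, 0.65 for the endothelial markers and -1.49 for the tumour epithelium markers. The part of these markers in the target lists was not tested.

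**Figure D5:**
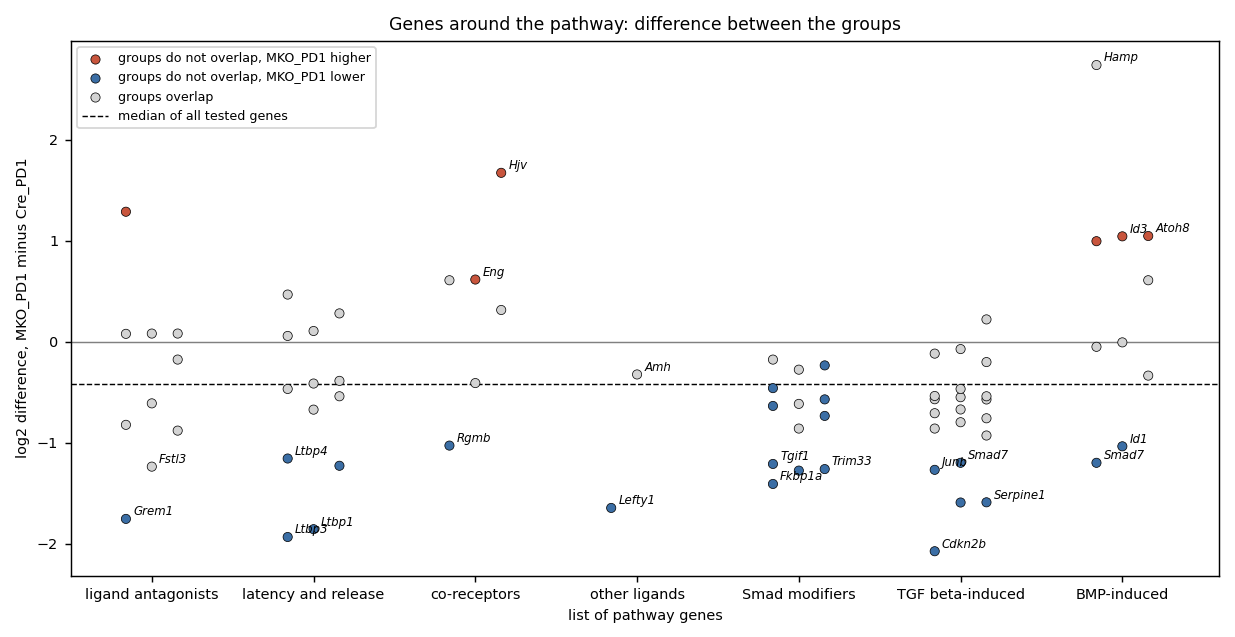
Log2 difference between the groups for each tested gene of the 7 pathway lists, coloured by whether the groups overlap, with the median of all genes dashed. Smad modifiers and TGF beta-induced genes lie mostly below 0, and the co-receptor and BMP-induced lists hold points on both sides, from -1.20 (Smad7) to 2.74 (Hamp) in the latter.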

How the data were processed

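Bulk polyadenylated RNA of 6 mouse liver tumours was measured, 3 per group. The submitters' processing notes list STAR 2.7.10a, Subread, featureCounts 2.0.3 and mm10, and their parameters are not given in the sources used here. The deposited table, made by the authors, holds a length-normalised read signal per gene that was not scaled to a fixed total (column sums from 70363 to 105281). Multiplied by GENCODE M21 exon lengths, the values of 98.5% of 29802 expressed genes became whole multiples of 1 constant in each library, to a tolerance of 0.001 reads. Reads given in the text are these recovered numbers.

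Columns were rescaled to 1000000 (TPM) and analysed as log2(TPM + 1). Genes that reached 1 TPM in 3 or more libraries were fitted with limma 3.58.1 in R 4.3.3 (mean-variance trend, no covariate), with Benjamini-Hochberg adjustment over all 16506 genes and a threshold of 0.05. The fit was also run on simulated counts with the same relative spread for every gene and no difference in tissue content. These tumours differ from that setting, so the simulation does not show how the fit performs on them. Differences are given as MKO_PD1 minus Cre_PD1, and folds come from the same fit, so they understate changes of low genes. Whether the groups overlap was read from the 3 values per group. Each tumour came from its own mouse as far as the design text counts mice. The members and gene lists were chosen with earlier results of these data known. Up to 4 tested members of each role by smallest p, the most abundant one, and up to 3 tested genes of each pathway list were named by rule; other context genes (Lrrc32, Nrros, the collagens, Id2, Id3, Id4, Hamp) were chosen after their values were seen. Promoter windows came from RefSeq, matched by symbol, the one nearest to the GENCODE start where a gene has several. Alternatives changed the pseudocount (0.1), the filter (none, or 5 TPM), the scaling, a block on the replicate number, the test (limma voom on recovered reads with trimmed-mean library sizes), the threshold (0.1) and the libraries used; the counts of separate groups under other settings were added after seeing the data. One antagonist gene that the rule names is counted with its list and otherwise not reported here.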

Additional observations from a re-analysis of the deposited data

How the results depend on the processing

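Changing the pseudocount, the filter, the threshold or removing the hepatocyte list before scaling left every tested member with a value on its side of 0 and of the threshold. The number of genes called over the whole table, 2, became 0 with no filter, with the 5 TPM filter and with limma voom on recovered reads, and 1 with median-of-ratios scaling and without MKO_PD1 replicates 1 and 3. Leaving out 1 library at a time gave 0 to 7314 genes, 0 to 13 members and 0 to 28 context genes called, the highest each time without MKO_PD1 replicate 2, and a log2 difference of Trem2 from -0.84 to -0.20 (limma adjusted p = 0.0450 at the first of these, also without MKO_PD1 replicate 2). The replicate block called 0 genes and 0 members. Deviations of same-numbered libraries from their group means correlated at -0.42, -0.26 and 0.049. These values gave no sign of pairing by number, but with 3 libraries a group they cannot exclude it. Members with separate groups numbered 6 to 9 higher and 8 to 20 lower when 1 library was left out, 12 higher with median-of-ratios scaling and 15 higher without MKO_PD1 replicates 1 and 3. The shares of all genes moved with them, to 10.7 to 14.3% higher and 29.1 to 60.9% lower when 1 library was left out, 18.6% higher with median-of-ratios scaling and 31.9% higher without replicates 1 and 3.

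Signs turned for some members, whose log2 differences in the main fit ran from -0.47 (Inhbb) to 0.37 (Acvrl1). The median of all genes moved from -0.42 to -0.018 with median-of-ratios scaling and to -0.012 with limma voom. The cause of each turn was not tested. With median-of-ratios scaling the log2 differences were 0.12 for Acvr2a, 0.11 for Acvr2b, 0.28 for Bmp2k, 0.071 for Gdf6, 0.11 for Smad6 and 0.27 for Tgfbr2. With limma voom they were 0.12, 0.13, 0.33, 0.18, 0.098 and 0.28 in the same order. Leaving out 1 library at a time gave ranges of -0.14 to 0.23 for Bmp1, -0.28 to 0.48 for Inha, -0.45 to 0.16 for Bmp2k, -0.40 to 0.091 for Gdf6, -0.54 to 0.13 for Tgfbr2 and -0.0046 to 0.63 for Acvrl1. Inha reached -0.067 without Cre_PD1 replicate 1, Bmp1 -0.12 without MKO_PD1 replicate 2 and -0.051 without MKO_PD1 replicate 3, and Gdf6 0.014 without the latter. With MKO_PD1 replicate 2 as the lone MKO_PD1 library, assumed to vary like the others, Trem2 was at 0.36, Bmp2 at -0.11, Bmp2k at 0.51, Gdf6 at 0.68, Inhbb at 0.32, Tgfbr2 at 0.51 and Amh at 0.12. With 3 tumours a group, some differences well above their standard errors did not pass the test on all libraries. The part of tissue content in this was not tested. Smad3 is an example (log2 difference -1.63, SE 0.54, limma adjusted p = 0.168). Members under 100 reads per library rest on few counts.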

Other observations

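Hepcidin, the iron hormone of hepatocytes that BMP6 and Hjv induce, showed a wide spread. Its gene Hamp was at 29.5, 708 and 1153 TPM in Cre_PD1 and 3567, 983 and 2124 TPM in MKO_PD1, overlapping groups, with Cre_PD1 replicate 1 the lowest of the 6 (log2 difference 2.74, SE 1.25, limma adjusted p = 0.186). Bmp6 and the summed hepatocyte markers were also lowest in that library, and the hepatocyte markers, like Hamp, were highest in MKO_PD1 replicates 1 and 3. Their part in the Hamp values was not tested.

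The order of the 6 libraries was compared between each of 38 tested members and each of 10 marker lists, 380 pairs in all, as a description with no test. It was the same in 8 pairs and exactly opposite in 7. Inhbc stood in the order of the hepatocyte list, Gdf2 and Tgfbr3 in that of the endothelial list, Tgfb1, Smad3 and Smad4 in that of the cell cycle list, Smad2 in that of the tumour epithelium list and Bmp6 in that of the Kupffer cell list. The endothelial and cell cycle lists had exactly opposite orders, as did the hepatocyte and tumour epithelium lists. A match to 1 list of such a pair was thus also an opposite match to the other. For Gdf2 the order rested on 10.897 against 10.886 TPM in MKO_PD1 replicates 1 and 3.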
